A study of Rattus norvegicus with 20 samples.

Results

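Genes of the renin-angiotensin, endothelin and adrenergic systems were followed in Dahl rat left ventricle, labelled as of a failed and of a normal heart. The members were Agt, Ace, Agtr1a, Edn1, Ednra, Adrb1, Adra1a, Adra1b and Grk2, and every probe set of the Rat Genome 230 2.0 array whose only gene symbol was one of these was taken. This gave 10 probe sets of 20826 that have a single gene symbol, for 8 genes of 14217. Of the 9 members, Ace and Agtr1a have 2 probe sets each and 6 genes have 1 each. Ednra, the endothelin type A receptor, had none in the annotation used and was not analysed here. The one heart is labelled as failed, and only its mRNA labels add congestive heart failure and a high-sodium diet. The other is labelled as normal, with no diet given. Age is given as 19 weeks on every label but that of the normal H4ac array, and the labels say neither which Dahl line the animals belong to nor how many animals were used. Below, failed heart and normal heart stand for the arrays under each label, which may or may not come from 1 animal. The mRNA is labelled as coming from left ventricular myocytes, while the design text speaks of a left ventricle specimen.

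Each heart had 10 arrays, 1 for each assay: mRNA, genomic DNA before immunoprecipitation (pre-IP), and chromatin immunoprecipitates (ChIP) for acetylated H3 (H3ac), acetylated H4 (H4ac) and the methylated lysines K4me2, K4me3, K9me2, K9me3, K20me3 plus K27me2. The labels do not name the histone of these lysines. For the normal H4ac array a label field names pre-IP DNA as its source, whereas the title and description name acetylated H4. It was used as H4ac, and each H4ac value of the normal heart and each H4ac difference rests on that. With 1 array per assay and heart no value has a replicate error and no test between the hearts was possible, so every difference is one between 2 arrays. Levels are intensities scaled so that every array had 100 as its median, with values below 10 set to that floor. Differences are log2 values of the failed heart minus those of the normal heart. Enrichment is the log2 ratio of ChIP to pre-IP within a heart, so the 8 marks of a heart share its pre-IP array. A difference of 1 or more in size, 2-fold, was counted where the mean log2 level over the arrays compared reached the median of all probe sets, here called the level filter.

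In the renin-angiotensin system, Agt encodes angiotensinogen, from which renin cuts angiotensin I. Ace, the angiotensin converting enzyme, turns this into angiotensin II, and Agtr1a encodes the receptor through which angiotensin II raises vascular tone and acts on the heart. Edn1 encodes the vasoconstrictor peptide endothelin. Adrb1 encodes the main beta-adrenergic receptor of cardiac myocytes, which couples to Gs and cAMP, whereas Adra1a and Adra1b encode alpha-adrenergic receptors that couple to Gq. Grk2 encodes the kinase that phosphorylates agonist-bound beta receptors and so desensitizes them. Drugs that block angiotensin and beta-adrenergic signalling are standard in heart failure. As background, acetylated histones and K4 methylation mark active regulatory DNA, and K9, K20 and K27 methylation are known from inactive chromatin.

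Bases upstream of the transcription start are shown for the 3 members that carry the main results: Adrb1, with marks of active chromatin in both hearts, Agtr1a, with K9me2 in both hearts, and Ace, with more mRNA in the failed heart. They come from RefSeq on build GRCr8, which held such a window for 7 of the 9 members, and run 5′ to 3′ over the 250 bases before the start. The Agtr1a window lies partly inside the annotated span of its gene, and those of Adra1b and Ednra wholly. Their start is thus not the outermost one of the gene. Capitals mark CG dinucleotides. The probes of this array were designed against transcripts, so these bases are not the ones that were measured.
Adrb1 at chr1:265776853-265777102, plus strand: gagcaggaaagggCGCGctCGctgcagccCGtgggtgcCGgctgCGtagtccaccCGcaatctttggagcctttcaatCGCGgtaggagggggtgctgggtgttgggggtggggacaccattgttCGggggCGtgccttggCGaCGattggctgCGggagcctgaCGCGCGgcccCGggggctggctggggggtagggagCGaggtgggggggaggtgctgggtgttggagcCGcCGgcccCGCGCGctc
Agtr1a at chr17:34435433-34435682, minus strand: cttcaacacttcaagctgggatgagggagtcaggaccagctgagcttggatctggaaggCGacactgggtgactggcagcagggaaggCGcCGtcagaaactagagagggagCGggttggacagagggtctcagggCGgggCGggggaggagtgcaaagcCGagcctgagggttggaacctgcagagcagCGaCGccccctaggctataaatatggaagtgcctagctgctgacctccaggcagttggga
Ace at chr10:91409879-91410128, plus strand: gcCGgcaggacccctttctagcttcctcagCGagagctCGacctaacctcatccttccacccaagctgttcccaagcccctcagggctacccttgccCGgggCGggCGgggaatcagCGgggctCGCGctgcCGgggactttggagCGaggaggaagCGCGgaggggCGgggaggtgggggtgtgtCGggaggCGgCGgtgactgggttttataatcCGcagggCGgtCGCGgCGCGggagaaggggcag

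The Adrb1 window holds 24 CG dinucleotides and 72.0% G or C, the Ace window 23 and 69.2%, and the Agtr1a window 9 and 60.8%. The median over 33469 windows of the same length was 5 CG dinucleotides. At least as many as in Adrb1 were found in 10.9% of windows, as in Ace in 12.3% and as in Agtr1a in 38.5%. Among the other members, Grk2 has 48, reached by 0.167% of windows, Adra1b has 23, Edn1 15 and Ednra 10. The letters TATAAA, searched on both strands, occur in the windows of Ace, Agtr1a and Edn1, in none of the other 4, and in 12.9% of all windows.

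The mRNA comparison asked which members differed between the failed and the normal ventricle. Ace had more mRNA in the failed heart at both of its probe sets. Probe set 1387791_at had a level of 269.8 in the failed heart and 96.6 in the normal heart, a difference of 1.48, or 2.79-fold. Probe set 1370028_at had 230.8 in the failed heart and 31.6 in the normal heart, a difference of 2.87, or 7.29-fold. The 2 probe sets thus agreed in direction and not in size. Across the scalings and floors tried, the first ran from 1.21 to 1.48 and the second from 2.21 to 2.87.

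Agt had a level of 10.9 in the failed heart and 26.7 in the normal heart, a difference of -1.29. Both levels lay far under the array median. The 2 probe sets of Agtr1a did not give the same answer. At 1369291_at the failed heart was at the floor of 10 and the normal heart at 61.9, a difference of -2.63 that depends on the floor. At 1384240_at the levels were 48.1 in the failed heart and 45.7 in the normal heart, a difference of 0.07, which was -0.19 with values as deposited. No direction can be given for Agtr1a mRNA. Edn1 had 124.0 in the failed heart and 66.5 in the normal heart, a difference of 0.90, or 1.87-fold, which stayed under 2-fold.

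Among the adrenergic receptors, Adra1b differed little, with 401.8 in the failed heart and 483.2 in the normal heart, a difference of -0.27. Adra1a had 13.2 in the failed heart and 32.9 in the normal heart, a difference of -1.32. Adrb1 had 31.9 in the failed heart and 14.7 in the normal heart, a difference of 1.12, or 0.86 with values as deposited. Both receptors lay far below the array median in both hearts, and with the floor raised to 50 Agt, Adra1a, Adrb1 and Agtr1a at 1384240_at all had a difference of 0. Grk2 had 200.8 in the failed heart and 161.0 in the normal heart, a difference of 0.32, or 0.05 with values as deposited.

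**Figure D1:**
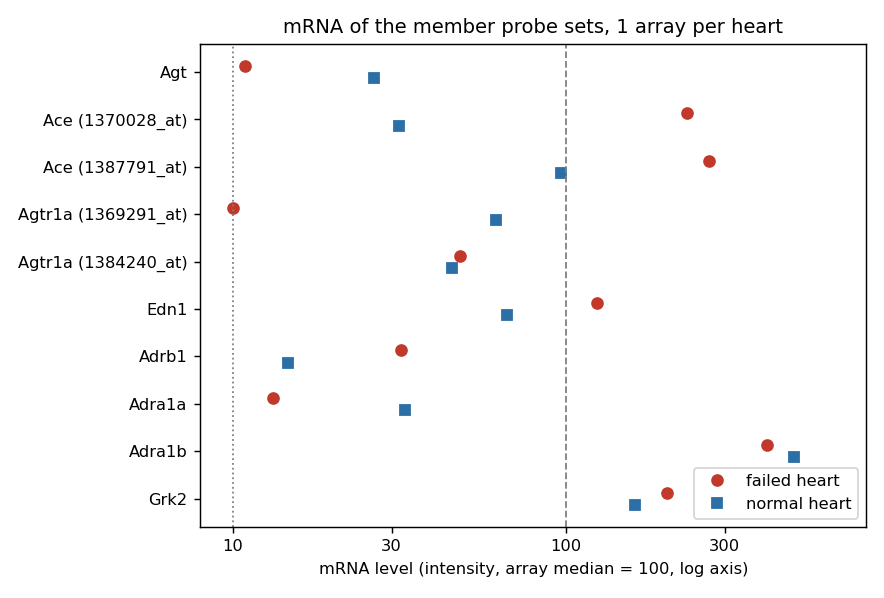
mRNA level of the 10 member probe sets in the failed heart (circles) and the normal heart (squares), 1 array each, on a log axis with the array median at 100 (dashed line) and the floor at 10 (dotted line). Both Ace probe sets lie at 230.8 and 269.8 in the failed heart, against 31.6 and 96.6 in the normal heart, while Agt, Adra1a, Adrb1 and Agtr1a lie below the dashed line in both hearts.

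Only 3 of the 10 probe sets passed the level filter for mRNA: those of Adra1b and Grk2, and 1387791_at of Ace. Of these 1 was past 2-fold, Ace, against a background of 15% of 11651 single-gene probe sets that passed. Without the filter 6 of 10 were past 2-fold, 3 in each direction, against 26.1% of all 20826. The median difference of the 10 was 0.20, beside 0.11 for all single-gene probe sets. On the pre-IP arrays, which hold DNA taken before the antibody step, 0 of the 5 members that passed the filter were past 2-fold, against 7.66%, and 0 of all 10, against 15.4%. No test was possible for any of these counts. Scaling moved these values together: as deposited, every mRNA difference above the floor was shifted by -0.27. The median over all probe sets was 0.05 here, -0.16 as deposited and 0 after quantile normalization.

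Ace is an enzyme known from endothelium, fibroblasts and macrophages, and markers of these and other cell types were compared between the hearts. All values are levels of 1 probe set per gene, summed over the measured markers, and in a bulk sample fewer cells of a type and less RNA per cell cannot be told apart. The 8 measured endothelial markers summed to 13168 in the failed heart and 13213 in the normal heart, with 1 of 8 past 2-fold, Vwf, which was higher. The 8 fibroblast markers summed to 50801 in the failed heart and 23697 in the normal heart. All 8 were higher in the failed heart, 3 of them past 2-fold. Macrophage markers summed to 11028 in the failed heart and 2914 in the normal heart over 10 genes. Of the 10, 9 were higher in the failed heart, and Itgam was at the floor in both hearts. Among the 8 that passed the filter, 3 were past 2-fold upward. Smooth muscle markers summed to 4865 in the failed heart and 8635 in the normal heart. All 7 were lower in the failed heart, 6 of them past 2-fold. The median difference was -0.16 for endothelial, 0.93 for fibroblast, 0.91 for macrophage and -1.13 for smooth muscle markers. Over all genes that passed the filter the median was 0.23, with 11.8% past 2-fold upward and 3.14% downward. Single genes weigh much in the sums: Lyz2 had 7655 in the failed heart and 1325 in the normal heart. Postn had 8254 in the failed heart and 301 in the normal heart. The part of these cell types in the Ace difference was not tested. Mast cell markers, of which Kit was at the floor in both hearts, summed to 262 in the failed heart and 276 in the normal heart, and adipocyte markers to 3648 in the failed heart and 4202 in the normal heart. Nerve and Schwann cell markers summed to 430 in the failed heart and 534 in the normal heart. Of these, Sox10 had 46.4 in the failed heart and 242 in the normal heart, the other 4 of 5 were higher in the failed heart, and the median difference was 0.32. All 7 measured cardiomyocyte markers passed the filter, and they summed to 127264 in the failed heart and 109518 in the normal heart. Myl2 (1.31) and Tcap (1.35) were higher past 2-fold and Myh6 (-1.03) lower. The 3′ to 5′ signal ratio of the GAPDH control was 22.6 in the failed heart and 11.3 in the normal heart, and that of the beta-actin control 12.4 in the failed heart and 18.2 in the normal heart. The part of RNA quality in the mRNA differences between the hearts, that of Ace among them, was not tested. Its part in differences between probe sets of a gene was not tested either.

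The chromatin arrays asked which marks lie at the members in each heart. Adrb1 carried more H3ac, H4ac, K4me2 and K4me3 than pre-IP DNA in both hearts. In the failed heart its level was 697 for H3ac, 547 for H4ac, 1118 for K4me2 and 491 for K4me3, against 229 before immunoprecipitation. The normal heart had 780.0 for H3ac, 414 for H4ac, 688 for K4me2 and 373 for K4me3, against 221 before immunoprecipitation. All 8 of these ChIP values thus lay above the pre-IP value of their own heart.

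The enrichment of Adrb1 was 1.60 in the failed heart and 1.82 in the normal heart for H3ac, and 2.29 in the failed heart and 1.64 in the normal heart for K4me2. It was 1.25 in the failed heart and 0.91 in the normal heart for H4ac, and 1.10 in the failed heart and 0.75 in the normal heart for K4me3. At K9me2 the gene lay under pre-IP, with levels of 92.4 in the failed heart and 113 in the normal heart, and enrichments of -1.31 in the failed heart and -0.97 in the normal heart. K20me3 and K27me2 also lay under pre-IP in both hearts, with enrichments between -0.81 and -0.49. Of the 10 member probe sets, Adrb1 was the only one above 0 in all 4 of H3ac, H4ac, K4me2 and K4me3 in both hearts, a pattern that 10.4% of all probe sets had. It was also the only one at least 2-fold over pre-IP in both hearts for H3ac and K4me2 together, which held for 4.44% of all. Both patterns were chosen after the values were seen. With quantile normalization the H3ac enrichment was 0.91 in the failed heart and the K4me2 enrichment 0.88 in the normal heart, both below 2-fold. These marks stood beside the low mRNA levels given above. Adrb1, at chr1:265777103-265780114 on GRCr8, spans 3012 bases, the shortest of the members.

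Agtr1a carried K9me2 over pre-IP at both of its probe sets and in both hearts. At 1369291_at the K9me2 level was 122 in the failed heart and 229 in the normal heart, against pre-IP levels of 58.5 in the failed heart and 61.9 in the normal heart. The enrichment was 1.06 in the failed heart and 1.89 in the normal heart. At 1384240_at it was 184 in the failed heart and 155 in the normal heart, against pre-IP levels of 55.3 in the failed heart and 73.4 in the normal heart. The enrichment was 1.73 in the failed heart and 1.08 in the normal heart. At 1384240_at K9me2 gave the highest level of the DNA arrays in each heart. Without the pre-IP correction, the K9me2 levels over the array median were 0.28 and 0.88 in the failed heart and 1.19 and 0.64 in the normal heart, so 3 of 4 fell below 2-fold. Acetylation was low at the same gene. H3ac enrichment was -0.68 in the failed heart and -1.16 in the normal heart at 1384240_at, and at 1369291_at -2.55 or less in the failed heart, whose ChIP value was at the floor, and -0.65 in the normal heart. H4ac lay below 0 at both probe sets in both hearts, between -1.47 and -0.15. K4me2 also lay below 0 at both in both hearts. K4me3 lay over pre-IP at 1369291_at, at 0.42 in the failed heart and 0.34 in the normal heart. At 1384240_at K4me3 was 0.14 in the failed heart and -0.006 in the normal heart. K27me2 at 1369291_at was 0.80 in the failed heart and 0.63 in the normal heart. At 1384240_at K27me2 was 0.46 in the failed heart and -0.30 in the normal heart. K9me3 lay above 0 at both probe sets in both hearts. At 1369291_at K9me3 was 0.43 in the failed heart and 1.34 in the normal heart. K20me3 there was 1.24 in the failed heart and -0.06 in the normal heart, so some marks differed between the hearts. The enrichments of both probe sets correlated over the 16 ChIP values with Pearson's r of 0.690, values that share 2 pre-IP arrays per probe set. Agtr1a, at chr17:34383397-34435523, has a close paralog, Agtr1b, whose probe set had mRNA levels of 39.5 in the failed heart and 44.2 in the normal heart, and whether probes distinguish both genes was not tested.

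**Figure D2:**
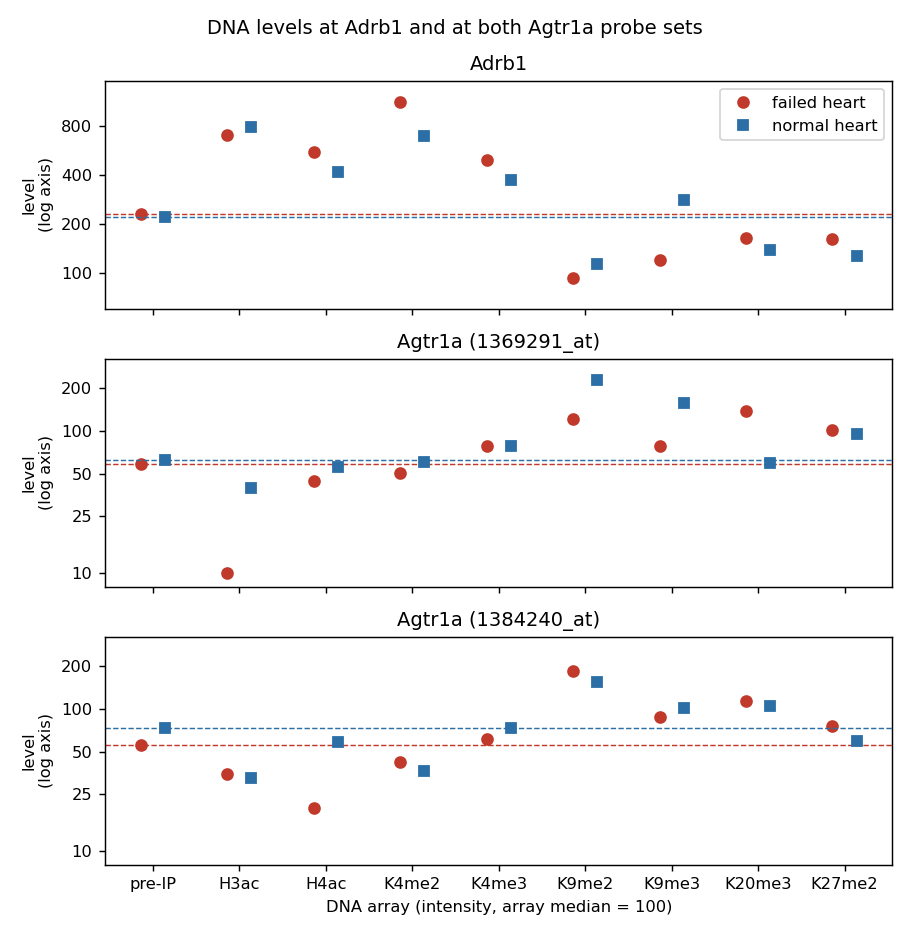
Levels at Adrb1 and at both Agtr1a probe sets on the 9 DNA arrays of the failed heart (circles) and the normal heart (squares), on log axes, with the pre-IP level of each heart as a dashed line. At Adrb1 the H3ac, H4ac, K4me2 and K4me3 points lie above the lines and K9me2 below them, whereas at Agtr1a K9me2 lies above the lines at both probe sets.

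Over all members, the count of probe sets at least 2-fold over pre-IP in both hearts was small. For K9me2 it was 2 of 10, both of Agtr1a, against 4.63% of all single-gene probe sets. For H3ac it was 1 of 10, Adrb1, against 6.56%, and for K4me2 also 1 of 10, Adrb1, against 10.5%. For the other 5 marks it was 0 of 10, where the background was 3.08% for H4ac, 1.28% for K4me3, 2.28% for K9me3, 1.83% for K20me3 and 1.73% for K27me2. A count of 1 in 10 is near these backgrounds, and both K9me2 probe sets belong to the same gene. Each probe set has the same probes on the arrays of either heart, so its values in the hearts are not independent. K9me2 had the highest member median of the 8 marks in both hearts, 0.73 in the failed and 0.56 in the normal heart. Over all single-gene probe sets it was -0.02 in the failed and -0.06 in the normal heart. The members did not share this: 7 of 10 lay above 0 in the failed heart, from -1.70 to 1.73. In the normal heart 6 of 10 did, from -1.49 to 1.89. Ace and Agtr1a enter these medians with 2 probe sets each, and the mark was singled out as the highest of 8.

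Edn1 lay above pre-IP for all 8 marks in the normal heart, with K4me2 highest at 1.04 and K9me3 lowest at 0.08. In the failed heart 5 of the 8 marks lay above 0, from 0.75 for K4me2 to -0.40 for K4me3. K4me2 was thus the highest mark of Edn1 in both hearts, with ChIP levels of 262 in the failed heart and 192 in the normal heart. The pre-IP level itself was 156 in the failed heart and 93.3 in the normal heart. Agt lay above pre-IP for 7 of 8 marks in the failed heart, led by H3ac at 1.38 and K4me3 at 1.18, and for 7 of 8 in the normal heart, led by K4me2 at 0.81.

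Adra1a had its highest enrichments in the normal heart for H4ac, at 1.07, and K9me2, at 0.98. In the failed heart these were 0.23 for H4ac and 0.78 for K9me2, and the lowest was K27me2 at -1.31. Adra1b had the same sign in both hearts for only 3 of 8 marks, with H3ac at 0.87 in the failed heart and -0.37 in the normal heart and K4me3 at 0.60 in the failed heart and -1.02 in the normal heart. Grk2 also agreed in sign for 3 of 8 marks, while Adrb1 agreed for 7 of 8. At Grk2 K4me2 was 1.24 in the failed heart and -0.06 in the normal heart. Ace had weak enrichments at 1387791_at, the highest being K9me2 with 0.65 in the failed heart and 0.61 in the normal heart. Its other probe set, 1370028_at, had 9 of 16 ChIP values at the floor and pre-IP levels of 32.5 in the failed heart and 18 in the normal heart, so its enrichments are mostly upper bounds.

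**Figure D3:**
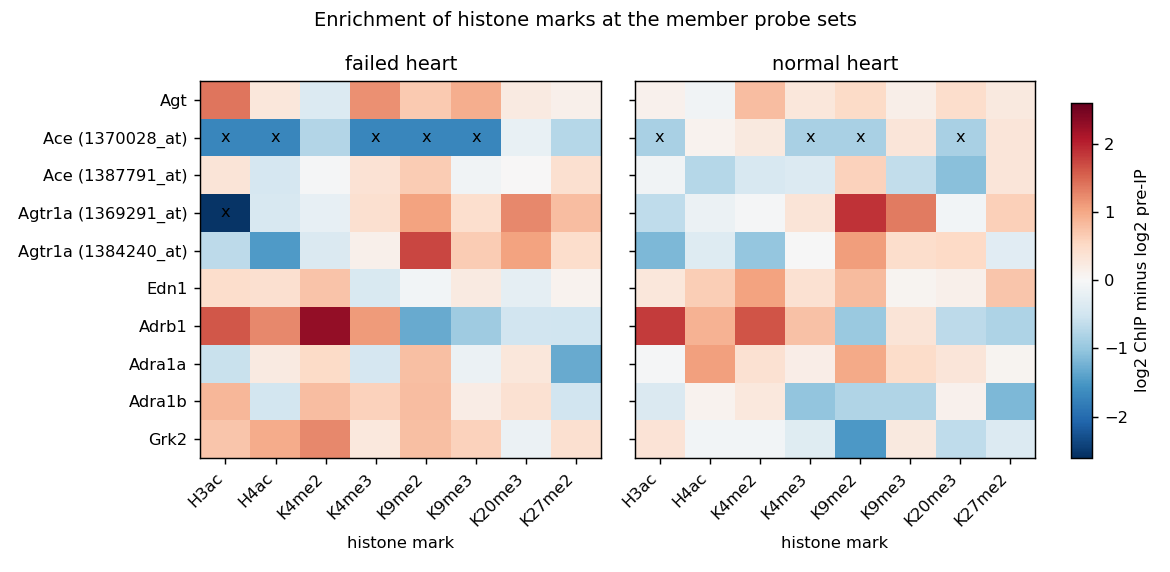
Enrichment of 8 histone marks (log2 ChIP minus log2 pre-IP, colour scale) at the 10 member probe sets in the failed heart (left) and the normal heart (right). A cross marks a ChIP value at the floor, and the Adrb1 row shows H3ac, H4ac, K4me2 and K4me3 above 0 and K9me2 below 0 in both hearts.

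Setting the hearts against each other asked where enrichment at a member was higher or lower in the failed heart. Grk2 had the largest difference upward. Its K9me2 level was 137 in the failed heart and 37.7 in the normal heart, and over pre-IP the difference was 2.28, below the level filter. All 8 marks were higher in the failed heart over pre-IP, among them K4me2 by 1.31 and H4ac by 1.04. The Grk2 pre-IP level was 79.2 in the failed heart and 105.7 in the normal heart, a difference of -0.42 that enters every mark. Without pre-IP 6 of 8 were higher, K9me2 by 1.86, K4me2 by 0.89 and H4ac by 0.62.

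Adra1b differed by 1.61 for K4me3, 1.58 for K9me2 and 1.24 for H3ac. The K4me3 level was 176 in the failed heart and 95.0 in the normal heart, the K9me2 level 204 in the failed heart and 113 in the normal heart, and the H3ac level 213 in the failed heart and 149 in the normal heart. Its pre-IP level was 117 in the failed heart and 192 in the normal heart, a difference of -0.72. Without pre-IP the 3 mark differences were 0.89, 0.86 and 0.52, and none reached 2-fold. H4ac then differed by -1.29, with a level of 83.7 in the failed heart and 205 in the normal heart.

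Agt had more H3ac in the failed heart, with a level of 258 there and 112 in the normal heart, a difference of 1.26, and less K4me2, with 77.2 in the failed heart and 179 in the normal heart, a difference of -1.16. Its pre-IP levels, 98.7 in the failed heart and 102.6 in the normal heart, nearly matched, and without pre-IP the differences were 1.21 and -1.22. H3ac and K4me2 thus went opposite ways at Agt. Adrb1 differed past 2-fold in K9me3 alone, with 120.1 in the failed heart and 278 in the normal heart, a difference of -1.27, or -1.21 without pre-IP. Its pre-IP levels, 229 in the failed heart and 221 in the normal heart, differed by 0.05. Adra1a had less K27me2, with 65.8 in the failed heart and 171 in the normal heart, a difference of -1.39, and -1.38 without pre-IP. The pre-IP difference of Adra1a was 0.01.

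Edn1 had no mark past 2-fold, its differences running from -0.89 for K9me2 to 0.17 for H3ac. The pre-IP difference of 0.74 enters these values with the opposite sign, and 6 of its 8 ChIP levels were higher in the failed heart. At Agtr1a the probe sets disagreed: H3ac differed by -1.90 at 1369291_at, with the failed value at the floor, and by 0.48 at 1384240_at, where H4ac differed by -1.13. K20me3 at 1369291_at differed by 1.30. At Ace, 1387791_at was higher in the failed heart for all 8 marks over pre-IP, from 0.05 for K9me2 to 1.09 for K20me3, with a pre-IP difference of -0.29. Without pre-IP 6 of 8 were higher, K9me2 differed by -0.24 and K27me2 by -0.18, and K20me3 differed by 0.80, below 2-fold. At 1370028_at the ChIP values for H3ac, K4me3 and K9me2 were at the floor in both hearts, so these marks have no direction there. Of its other marks only K20me3 was higher over pre-IP, by 0.66, with the normal ChIP value at the floor. K9me3 differed by -2.02 and H4ac by -1.80, with the failed ChIP values at the floor, K27me2 by -1.04 and K4me2 by -1.01. Over pre-IP the 2 Ace probe sets thus went opposite ways for these 4 marks. The pre-IP difference at 1370028_at was 0.85. Without pre-IP the 4 differed by -1.17, -0.95, -0.20 and -0.16, and K20me3 by 1.51. The K20me3 level at 1387791_at was 70.0 in the failed heart and 40.3 in the normal heart, with both under the array median. None of these Agtr1a and Ace differences past 2-fold passed the level filter. Of the 9 differences past 2-fold that passed it, 4 were also past 2-fold without pre-IP: H3ac and K4me2 at Agt, K9me3 at Adrb1 and K27me2 at Adra1a. The other 5 lay at Adra1b and Grk2.

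**Figure D4:**
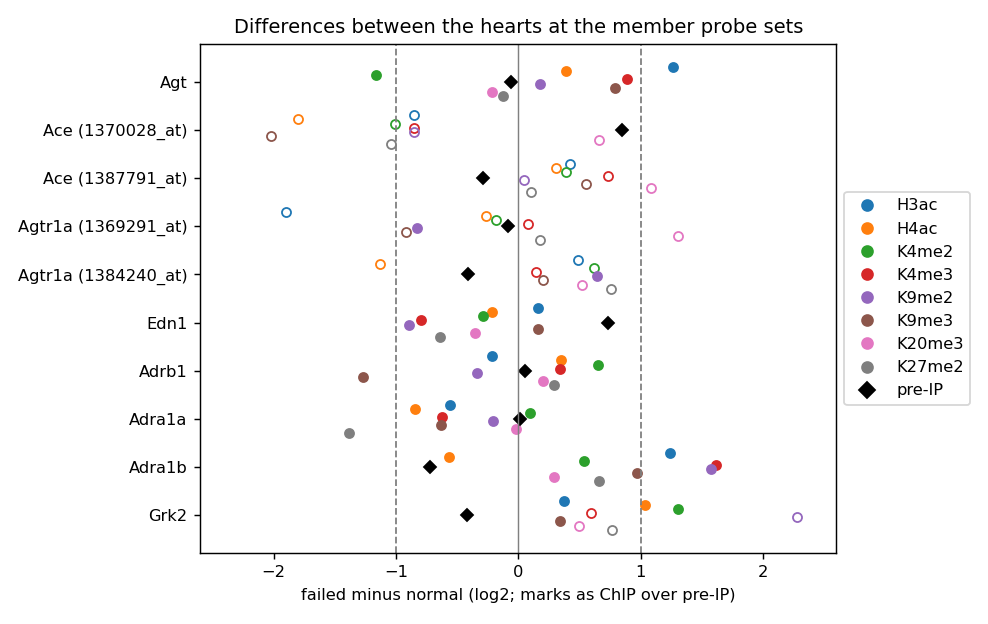
Failed minus normal difference of 8 mark enrichments (circles) and of the pre-IP level (black diamonds) at the 10 member probe sets, on the log2 scale with dashed lines at 2-fold. Filled circles passed the level filter and open ones did not, and the mark differences of Adra1b and Grk2, whose pre-IP values were -0.72 and -0.42, lie mostly to the right, while the H3ac, K4me3 and K9me2 points of Ace 1370028_at only mirror its pre-IP value, their ChIP values being at the floor in both hearts.

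Counted over the 8 marks, 9 of 46 member values that passed the level filter were past 2-fold, which is 19.6%, against 18.1% of all single-gene values. By mark, H3ac had 2 of 6 against 19.5%, H4ac 1 of 6 against 11.2%, K4me2 2 of 6 against 18.1%, K4me3 1 of 5 against 19.1%, and K9me2 1 of 7 against 25.4%. K9me3 had 1 of 6 against 21.2%, K20me3 0 of 5 against 17.3% and K27me2 1 of 5 against 13%. The share over the members was near the background. No mark value of Ace, which had the largest mRNA difference upward among the members, passed the level filter. None of its marks could thus be counted here.

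Other genes of these pathways were taken from lists of related genes, with 1 probe set per gene, and the values are mRNA differences. Among all 9317 genes that passed the level filter 11.8% were past 2-fold upward and 3.14% past 2-fold downward, and the median difference was 0.23. Of 16 other renin-angiotensin-aldosterone genes measured, 5 passed the filter, 1 was past 2-fold upward and 0 downward, with a median of 0.05. The 1 past 2-fold was Hsd11b1, which regenerates active glucocorticoid, with 1716 in the failed heart and 388 in the normal heart, a difference of 2.15. Atp6ap2, the prorenin receptor, differed by 0.82, and by -2.00 at another probe set below the level filter, whose failed value was at the floor. Enpep, an aminopeptidase that cleaves angiotensin II, differed by -0.34, with another probe set at 0.72. The mineralocorticoid receptor Nr3c2 differed by 0.05, which was -0.21 as deposited and -0.09 after quantile normalization.

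Of 4 other endothelin genes measured, 2 passed, both encoding endothelin converting enzymes. Ece1 had 413 in the failed heart and 187 in the normal heart, a difference of 1.14, which was 0.87 as deposited and 0.99 after quantile normalization. Ece2 had 105.8 in the failed heart and 239 in the normal heart, a difference of -1.18. Of 13 other adrenergic receptor and catecholamine genes, 4 passed and 1 was past 2-fold upward. This was Maoa, a mitochondrial monoamine oxidase, with 8811 in the failed heart and 892 in the normal heart, a difference of 3.30. Maob differed by 0.19, Dbh, which makes noradrenaline, by 0.29, and Ddc, which makes dopamine, by -0.09. Another Ddc probe set, below the level filter, was at 2.85. For Maob the value was -0.08 as deposited and -0.05 after quantile normalization. The list's median was 0.24.

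Of 11 genes for receptor kinases, arrestins and RGS proteins, 8 passed, and 0 were past 2-fold in either direction, with a median of 0.37. Grk5, another kinase of adrenergic receptors, had 102.3 in the failed heart and 165 in the normal heart, a difference of -0.69, and Rgs2, Rgs3 and Rgs5, which shorten G protein signals, differed by 0.43, 0.45 and 0.44. For Rgs3 the other probe sets that passed the filter were at -0.01 and -0.37. As deposited Rgs2, Rgs3 and Rgs5 differed by 0.16, 0.19 and 0.18, and after quantile normalization by 0.24, 0.12 and 0.08. Of 22 Gs and cAMP genes, 16 passed, 3 were past 2-fold upward and 0 downward, with a median of 0.40. The 3 were regulatory subunits of protein kinase A: Prkar1a at 1.10, Prkar2a at 1.03 and Prkar2b at 1.01. They were below 2-fold as deposited, at 0.83, 0.76 and 0.74, and after quantile normalization, at 0.39, 0.67 and 0.92. Other Prkar1a probe sets were at 0.66 and 0.40, and other Prkar2a probe sets, below the level filter, at -0.08 and -0.53. Gnas, the Gs alpha subunit, differed by 0.91, or 0.34 after quantile normalization, with other probe sets at 0.01 and, below the level filter, -1.70. Of 17 Gq and calcium genes, 15 passed, 1 was past 2-fold upward and 0 downward, with a median of 0.23. It was Rcan1, a calcineurin inhibitor, at 1.25, or 0.98 as deposited, followed by Itpr2 at 0.93, with another probe set at -0.92, and Prkcb at 0.68. Camk2d was at -0.59, with other probe sets at -0.82 and, below the level filter, -1.76. As deposited Camk2d was at -0.86, and after quantile normalization at -1.195, past 2-fold. Other Prkcb probe sets, below the level filter, were at -2.07 and 2.75.

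**Figure D5:**
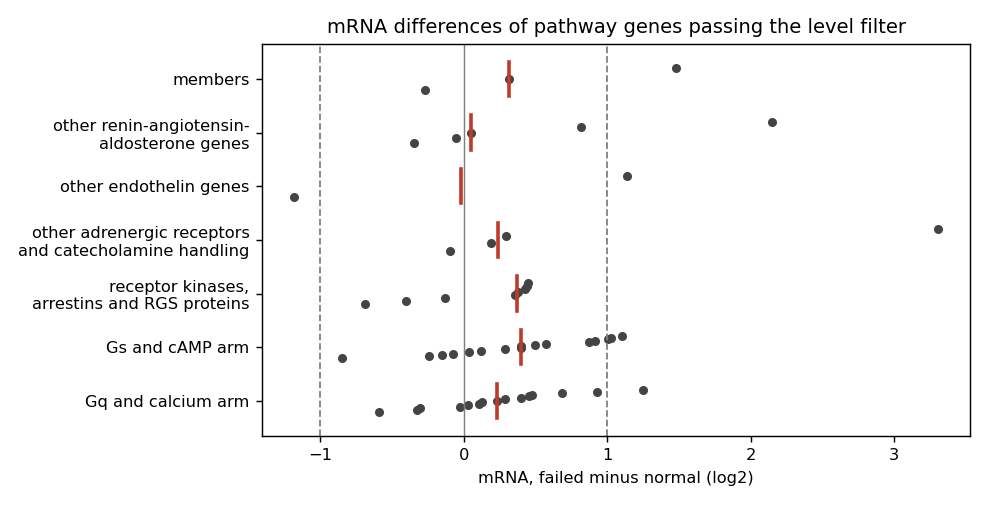
mRNA difference (failed minus normal, log2) of the genes that passed the level filter in the member list and in 6 related lists, with red bars at the list medians and dashed lines at 2-fold. Maoa at 3.30 and Hsd11b1 at 2.15 lie farthest to the right, and the receptor kinase list has no point past 2-fold.

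For each member gene the gene with the most similar pattern was found by Pearson's r of log2 level over the 20 arrays, using 1 probe set per gene. The 2 mRNA and 18 DNA arrays differ in kind, and r is a description. Adrb1 was most like Srf, a transcription factor of muscle genes, with r of 0.982. Agt was most like Atg2b, with r of 0.973. Adra1a was most like Slc8a1, the sodium-calcium exchanger, with r of 0.942. Agtr1a was most like St8sia3 at 0.931, Grk2 most like Mxra8 at 0.872 and Adra1b most like the chromatin remodeller Chd8 at 0.862. Ace was most like Suclg2 at 0.846 and Edn1 most like the chemokine receptor gene Cx3cr1 at 0.833. The levels of the 2 probe sets of Ace correlated with each other at 0.561 and those of Agtr1a at 0.665. Over the 16 enrichments r was -0.366 for the Ace pair and 0.690 for the Agtr1a pair. At Ace 1370028_at 9 of the 16 ChIP values were at the floor.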

How the data were processed

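The table deposited by the authors holds linear intensity of 31099 probe sets, 57 of them controls, on 20 arrays. Per the labels, RNA was made into biotinylated cDNA, and fragmented DNA was amplified with T7 polymerase and labelled. The sources used here do not give the tool with which the authors summarised and scaled the arrays. Every array had a mean between 500.03 and 500.17 after 2% of values were removed at each end, and medians as deposited ran from 189.1 to 415. Arrays were rescaled to a median of 100, floored at 10 (2.04% to 11.0% of values) and put on the log2 scale with pandas 2.3.3. Gene symbols came from the platform annotation: 20826 probe sets had 1 symbol, 436 several and 9780 none, and 20758 matched the RefSeq gene table, which renamed 0. A gene in a list was represented by the probe set of highest mean level on the mRNA arrays. The counting was run on simulated mRNA data with changes added only to probe sets well above the array median. That run does not bear on members with lower levels. Alternatives were values as deposited, quantile normalization, floors of 50 and 1, no pre-IP correction, no level filter and averaged probe sets. All members' probe sets were named, and from each list up to 4 genes with the largest mRNA differences among those that passed the level filter. Members and lists were chosen with earlier results of these data known. With 1 array per group, the number of arrays limits the precision.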

Additional observations from a re-analysis of the deposited data

How the results depend on the processing

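With 1 array per assay and heart, changes are described by direction and by side of 2-fold. The mRNA differences of both Ace probe sets, and the 0 members past 2-fold on pre-IP arrays, held under each scaling and floor tried. Members past 2-fold in mRNA numbered 1, but 6 without the level filter and 2 with the floor at 50. Over all single-gene probe sets the share without the filter was 26.1%, and none was taken for the floor at 50. Mark differences numbered 9, but 18 without the filter. By mark that was 1 (K4me3) to 3 (H3ac, H4ac and K4me2) of 10 probe sets, against 20.7% (H4ac) to 35.3% (K9me2) over all. For Adrb1, quantile normalization gave 0.91 for H3ac in the failed heart and 0.88 for K4me2 in the normal heart. For K9me2 at Agtr1a, ChIP alone gave 0.28 at 1369291_at and 0.88 at 1384240_at in the failed heart, and 0.64 at 1384240_at in the normal heart, as pre-IP lies under the array median there. With the floor at 50, 2 differences past 2-fold that had not passed the level filter changed sign, H3ac at Agtr1a 1369291_at to 0.081 and H4ac at 1384240_at to 0.19. The failed ChIP value lies under that floor in each case.

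Counts of list genes past 2-fold also moved. Endothelin genes numbered 2, but 1 with averaged probe sets, as deposited and with quantile normalization. Adrenergic and catecholamine genes numbered 1, but 2 with averaged probe sets, and receptor kinase genes 0, but 1 with averaged probe sets. Gs and cAMP genes numbered 3, but 1 under each of the 3 alternatives. Gq and calcium genes numbered 1, but 3 with averaged probe sets, 0 as deposited and 2 with quantile normalization. List medians changed sign as deposited for the renin-angiotensin-aldosterone (-0.21), adrenergic (-0.025) and Gq (-0.035) lists. They also did so with quantile normalization for the renin-angiotensin-aldosterone list (-0.061), and with averaged probe sets for endothelin (1.14) and receptor kinase genes (-0.33). Apart from the scale offset and the floors, the cause was not tested. No paired analysis was possible because each group has 1 array. Intensities under about the array median carry most of the members' mRNA values, which limits how far those differences can be read.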
